A study of Mus musculus with 6 samples.

Results

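Cathepsins are the proteases of the lysosome, the acidic compartment in which cells break down proteins delivered by endocytosis and autophagy. Most are cysteine proteases made as inactive proenzymes, which are tagged with mannose 6-phosphate, carried to the lysosome and activated there by removal of the propeptide; Ctsd is an aspartic and Ctsa a serine protease. In the heart they turn over mitochondria and other organelles inside cardiomyocytes, and those released by macrophages and fibroblasts can cut extracellular matrix.

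The 10 cathepsin genes described here are Ctsa, Ctsb, Ctsc, Ctsd, Ctsf, Ctsh, Ctsk, Ctsl, Ctss and Ctsz. They were chosen by membership of the family of lysosomal cathepsins, after the expression values of Ppif-/- and WT hearts were known, including the fall of Ctsf. Their values in that contrast are therefore given as a description, and nothing rests on their being called. Each of the 10 was read by 1 probe set that carries no other gene symbol, so 10 of the 35557 probe sets of the array, or 10 of 19938 genes so measured, are described.

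RNA came from whole hearts of mice aged 8 weeks, with 3 hearts of Ppif-/- mice and 3 of WT mice, each hybridised to 1 Affymetrix Gene 1.0 ST array. Ppif-/- mice carry a global knockout of the gene for cyclophilin D, a mitochondrial matrix protein that promotes the permeability transition, and had been bred from Sv129 onto C57BL/6; WT mice are labelled C57BL/6. The labels number the hearts and do not give sex, litter or the number of backcrosses. The series text gives as its purpose to find gene changes that precede heart dysfunction.

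Ppif was at 6.00, 6.25 and 6.44 in the Ppif-/- hearts and at 11.44, 11.28 and 11.49 in the WT hearts, on the log2 scale used throughout. Markers of cardiomyocytes were high in every heart, with a mean log2 level over 10 genes of 13.37 to 13.46. Arrays correlated at 0.991 to 0.997 across the tested probe sets, which are not independent. WT heart 2 and Ppif-/- heart 1 stood apart from the rest, with 161 and 153 tested probe sets at least 0.5 above all 5 other hearts, against 2 to 17 in the remaining hearts. The arrays' number limits the precision of all values.

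Of the 10 cathepsin genes, Ctsf was lower in Ppif-/- hearts and the other 9 did not pass the threshold, an adjusted p of 0.05 in limma's moderated test over 23410 probe sets. Across all tested probe sets 1.09% passed, and 0.461% passed as lower in Ppif-/- hearts. The 9 other cathepsin genes had differences between -0.19 and 0.16 (adjusted p = 0.431 to 0.978 in limma), 6 above 0 and 3 below. The median difference over the 10 genes was 0.03, and over all tested probe sets it was -0.00229.

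**Figure D1:**
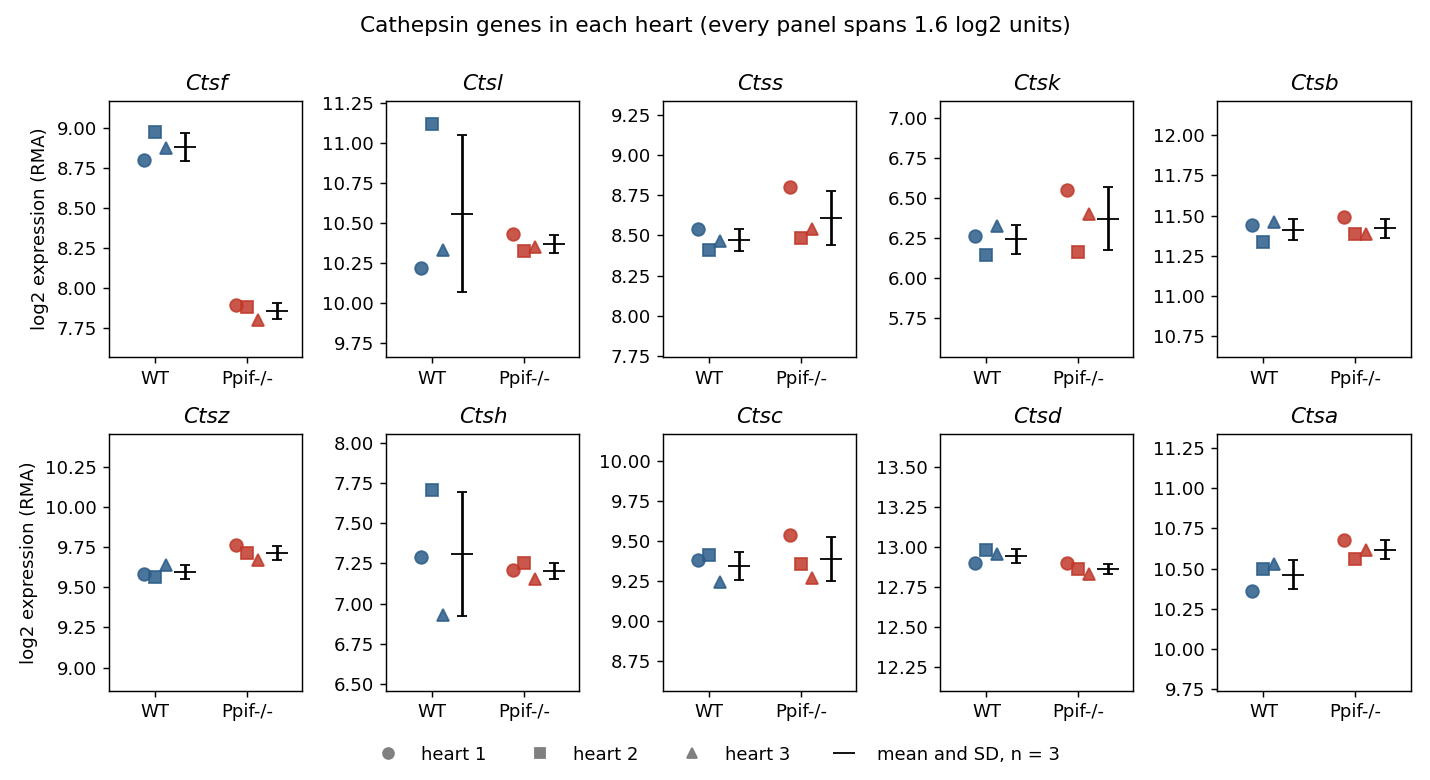
Log2 expression (RMA) of the 10 cathepsin genes in each heart, 1 panel per gene with axes of equal span; symbols mark the heart number and black bars the mean and SD of 3 hearts. Ctsf lies between 7.80 and 7.90 in Ppif-/- hearts and between 8.80 and 8.97 in WT hearts, and WT heart 2 is high for Ctsl and Ctsh.

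Ctsf encodes cathepsin F, a cysteine endopeptidase with a long propeptide, expressed in heart and skeletal muscle and in macrophages. Its probe set (10460468) read 7.90, 7.88 and 7.80 in Ppif-/- hearts 1, 2 and 3, and 8.80, 8.97 and 8.87 in WT hearts 1, 2 and 3. Every Ppif-/- heart was below every WT heart, and the gap between the groups exceeded the range within either. The difference was -1.02 ± 0.07 (SE), a 2.03-fold lower level, with a 95% interval of -1.19 to -0.85 (limma adjusted p = 0.000723). It had the 26th smallest p of all tested probe sets, and 0.397% of them had a larger absolute difference. Without any 1 heart the difference lay between -1.06 and -0.98 (limma adjusted p = 0.00335 to 0.00695). In whole hearts, fewer cells that express a gene and less of its RNA per cell cannot be told apart.

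**Figure D2:**
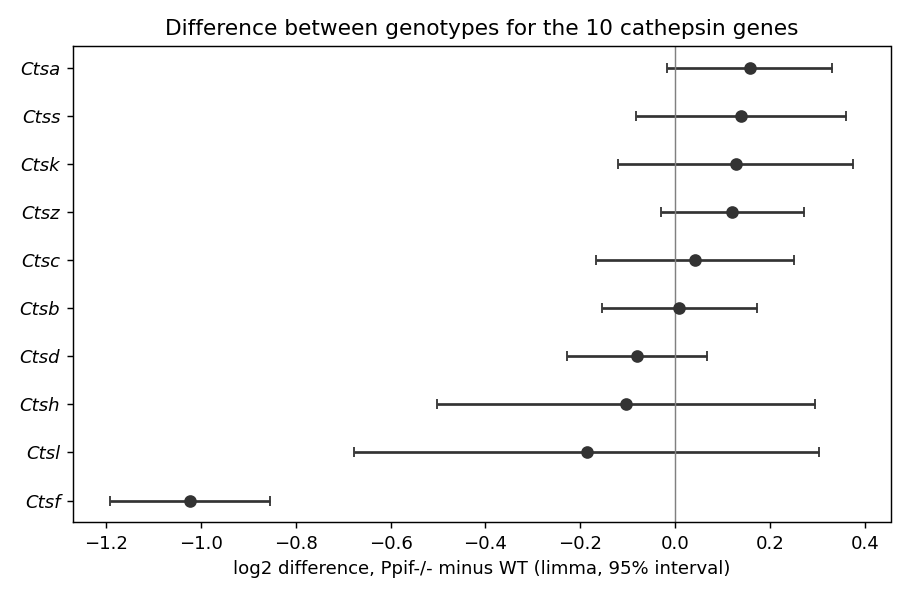
Log2 difference between Ppif-/- and WT hearts (x axis) for the 10 cathepsin genes (y axis), with points for the limma estimate and bars for its 95% interval, 3 hearts per genotype. The interval of Ctsf runs from -1.19 to -0.85 and those of the other 9 genes include 0.

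Lysosomal genes are known to be controlled by TFEB and related factors, which bind E-boxes with the core CACGTG. The bases upstream of Ctsf, which fell, are shown beside those of Ctsd, which did not pass, since both hold that core, in capitals below. They come from RefSeq (GRCm38.p6), 250 bases before the annotated start of each gene, 5′ to 3′ on the gene's strand. The Ctsf stretch is chr19:4854915-4855164 (plus strand) and the Ctsd stretch chr7:142387828-142388077 (minus strand).
Ctsf: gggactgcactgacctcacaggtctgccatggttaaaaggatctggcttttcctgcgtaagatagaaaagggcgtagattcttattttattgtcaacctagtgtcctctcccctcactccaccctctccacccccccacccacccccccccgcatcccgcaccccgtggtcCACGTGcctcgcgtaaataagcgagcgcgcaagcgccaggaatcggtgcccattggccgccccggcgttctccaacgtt
Ctsd: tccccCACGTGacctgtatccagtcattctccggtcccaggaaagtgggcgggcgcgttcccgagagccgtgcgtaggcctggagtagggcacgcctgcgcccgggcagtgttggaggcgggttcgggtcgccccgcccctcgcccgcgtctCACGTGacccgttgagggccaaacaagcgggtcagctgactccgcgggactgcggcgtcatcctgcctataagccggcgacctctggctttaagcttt

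The core begins 79 bases before the start in Ctsf, and 245 and 98 bases before it in Ctsd. In windows of 300 bases (250 before to 50 after the start), CACGTG, which reads the same on both strands, was found in 4 of the 8 cathepsin genes with a window, namely Ctsa, Ctsd, Ctsf and Ctsl, and in 8.09% of all 27025 genes. The longer TCACGTGA, which contains that core and is likewise its own reverse complement, was found in Ctsa and Ctsd and in 1.12% of all genes. Ctsb and Ctsh were not among the genes with a window. A match in this window is a sequence description only, and the core was present both in the gene that fell and in 3 that did not pass.

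The 10 measured genes nearest to Ctsf on its chromosome, 5 on each side, did not pass the threshold in limma. Their differences ran from -0.17 to 0.23 (smallest adjusted p = 0.344), with Ccdc87 at 0.11 and the sarcomeric actinin gene Actn3 at 0.07 directly beside Ctsf. Over the nearest 5 measured genes on each side of all 10 cathepsin genes, 0 of 90 passed, with differences of -0.38 to 0.27 (smallest limma adjusted p = 0.0687, for Tmem135 near Ctsc), and the groups did not overlap for 14 of them, beside 19.8% of all tested probe sets. Ctsc had more of these near it than any other cathepsin gene, 5 of its 10 neighbours, each with Ppif-/- hearts below. This count was picked after it was seen. Around each other cathepsin gene 0 to 3 neighbours did not overlap. Ctsb lies on the same chromosome as Ppif, and neither Ctsb nor its 10 neighbours passed (smallest limma adjusted p = 0.483 among the neighbours). Ctsb was not among the 10 measured genes nearest to Ppif. Of those 10 genes 0 passed (smallest limma adjusted p = 0.549), and the groups did not overlap for 1, beside 19.8% of all tested probe sets.

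**Figure D3:**
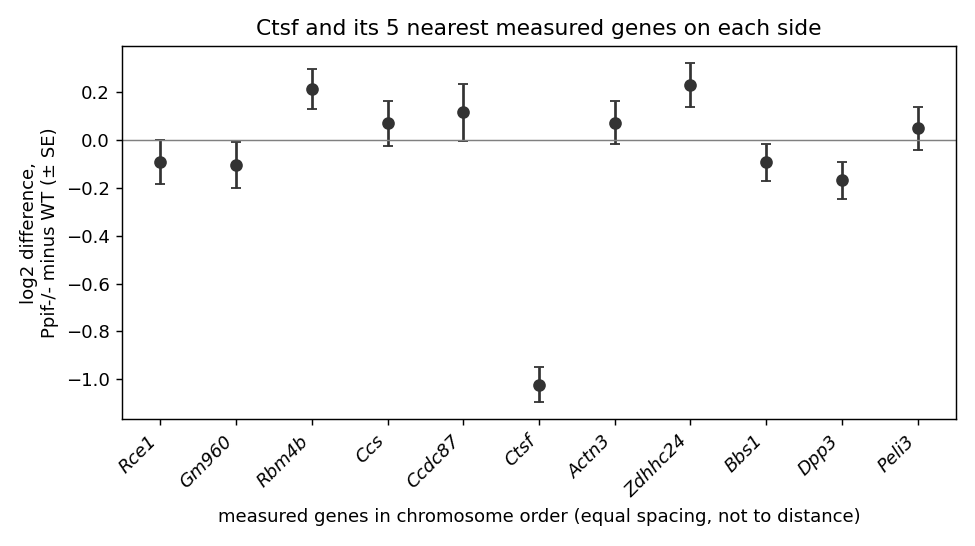
Log2 difference between Ppif-/- and WT hearts (y axis, limma estimate ± SE, 3 hearts per genotype) for Ctsf and the 5 nearest measured genes on each side, in chromosome order at equal spacing. Ctsf is at -1.02 and its neighbours lie between -0.17 and 0.23.

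The other 3 cysteine endopeptidases were Ctsl, Ctss and Ctsk. Ctsl, a ubiquitous lysosomal protease whose loss in mice leads to cardiomyopathy, read 10.43, 10.33 and 10.35 in Ppif-/- hearts and 10.22, 11.12 and 10.33 in WT hearts. WT heart 2 was 0.69 above the next highest heart, while the remaining 5 hearts overlapped. The difference was -0.19 ± 0.21 (SE) with all hearts, and 0.09 ± 0.08 without WT heart 2.

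Ctss, the protease of macrophages and other antigen-presenting cells that trims the MHC class II invariant chain, read 8.80, 8.49 and 8.54 in Ppif-/- hearts and 8.54, 8.41 and 8.46 in WT hearts. Ppif-/- heart 1 was the highest, and the groups overlapped (difference 0.14 ± 0.10, 95% interval -0.08 to 0.36). Ctsk, the collagen-degrading protease of osteoclasts that fibroblasts also make, read 6.55, 6.16 and 6.40 in Ppif-/- hearts and 6.26, 6.15 and 6.32 in WT hearts. Its groups overlapped as well, with a difference of 0.13 ± 0.11 and an interval of -0.12 to 0.38.

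Of the 4 cysteine cathepsins that trim peptide ends, 0 passed in limma, with 0 at an unadjusted p under 0.05. Ctsb, an abundant protease with both carboxypeptidase and endopeptidase activity, read 11.49, 11.39 and 11.39 in Ppif-/- hearts and 11.44, 11.34 and 11.46 in WT hearts. All 6 hearts were interleaved, and the difference was 0.01 ± 0.07 (95% interval -0.15 to 0.17). Ctsc, the dipeptidyl peptidase that activates granule serine proteases, read 9.54, 9.36 and 9.27 against 9.38, 9.41 and 9.25, a difference of 0.04 ± 0.09. For both genes the sign of the difference turned without Ppif-/- heart 1 (-0.03 for each). It also turned for Ctsb without WT heart 2 (-0.03) and for Ctsc without WT heart 3 (-0.007).

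Ctsz, a carboxypeptidase prominent in macrophages, read 9.76, 9.71 and 9.67 in Ppif-/- hearts and 9.58, 9.56 and 9.64 in WT hearts. Each Ppif-/- heart was above each WT heart, by a narrow margin, and the difference of 0.12 ± 0.07 did not pass (95% interval -0.03 to 0.27, limma adjusted p = 0.488). Ctsh, an aminopeptidase, read 7.21, 7.25 and 7.15 in Ppif-/- hearts and 7.29, 7.71 and 6.93 in WT hearts. The WT hearts held both the highest and the lowest value, and the difference moved from -0.10 ± 0.17 to 0.10 ± 0.11 without WT heart 2 and to -0.29 ± 0.13 without WT heart 3.

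Ctsd, the aspartic protease that starts the breakdown of many lysosomal proteins, read 12.90, 12.86 and 12.83 in Ppif-/- hearts and 12.90, 12.98 and 12.96 in WT hearts. The highest Ppif-/- heart fell just below the lowest WT heart, and the difference was -0.08 ± 0.06 (95% interval -0.23 to 0.07). Ctsa, the serine carboxypeptidase that also protects the lysosomal enzymes beta-galactosidase and neuraminidase in a complex, read 10.68, 10.56 and 10.62 in Ppif-/- hearts and 10.36, 10.50 and 10.53 in WT hearts. Each Ppif-/- heart was above each WT heart, and the difference of 0.16 ± 0.08 was the largest above 0 in the family (95% interval -0.02 to 0.33, limma adjusted p = 0.431).

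Counted together, the groups did not overlap for 4 of the 10 cathepsin genes, 2 with Ppif-/- hearts above (Ctsa and Ctsz) and 2 with them below (Ctsd and Ctsf), beside that same 19.8% of all tested probe sets. Among the 9 genes that did not pass, the 95% intervals reached from -0.68 (Ctsl) to 0.38 (Ctsk), so changes up to 1.6-fold lower or 1.3-fold higher lay within them and equal levels were not shown. Whether the difference of Ctsf differs from those of the other cathepsins was not tested. Within the Ppif-/- hearts, heart 1 had the highest value for 9 of the 10 genes, beside 31.6% of all tested probe sets, and the exception was Ctsh.

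Outside these 10, 11 of 13 further cathepsin genes listed were measured, and 0 passed in limma with 1 at an unadjusted p under 0.05. That 1 was Ctse, an aspartic protease of endosomes, at 5.02, 5.14 and 5.20 in Ppif-/- hearts and 5.50, 5.75 and 5.47 in WT hearts. Its groups did not overlap, and it differed by -0.45 ± 0.10 at a low level (limma adjusted p = 0.0828). The one with the next smallest p was Cts7, a placental cathepsin, at 0.15 ± 0.09. Ctso, a broadly expressed cysteine cathepsin named here after its values were seen, was at -0.02 ± 0.07.

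The genes that make, move and restrain cathepsins were taken from 9 further lists, on inhibitors, maturation, sorting, hydrolases, membrane, proton pump, regulators, MHC class II and granule proteases. Of their 109 measured genes 1 passed the threshold over all tested probe sets, as higher in Ppif-/- hearts, beside 1.09% of all tested probe sets. At an unadjusted p under 0.05, 7 were higher and 5 lower, beside 12.9% of all tested probe sets. The median difference was -0.00116.

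The gene that passed was Manba, beta-mannosidase, a lysosomal enzyme that removes mannose from glycoprotein sugars. It read 8.35, 8.49 and 8.31 in Ppif-/- hearts and 7.39, 7.23 and 7.41 in WT hearts. All Ppif-/- hearts were above all WT hearts, by 1.04 ± 0.08 or 2.06-fold (limma adjusted p = 0.00121), a change of about the size of that in Ctsf and opposite in direction. Without any 1 heart Manba passed too (limma adjusted p = 0.00561 to 0.00829). The other 26 of 27 measured lysosomal hydrolases did not pass, with Man2b1, the lysosomal alpha-mannosidase, next by p at 0.32 ± 0.08 (limma adjusted p = 0.146). At an unadjusted p under 0.05, 3 of the 27 were higher (Manba, Man2b1 and Prcp) and 1 was lower (Lipa). Prcp was at 0.49 ± 0.13 and Lipa at -0.27 ± 0.10, both named after their values were seen.

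**Figure D4:**
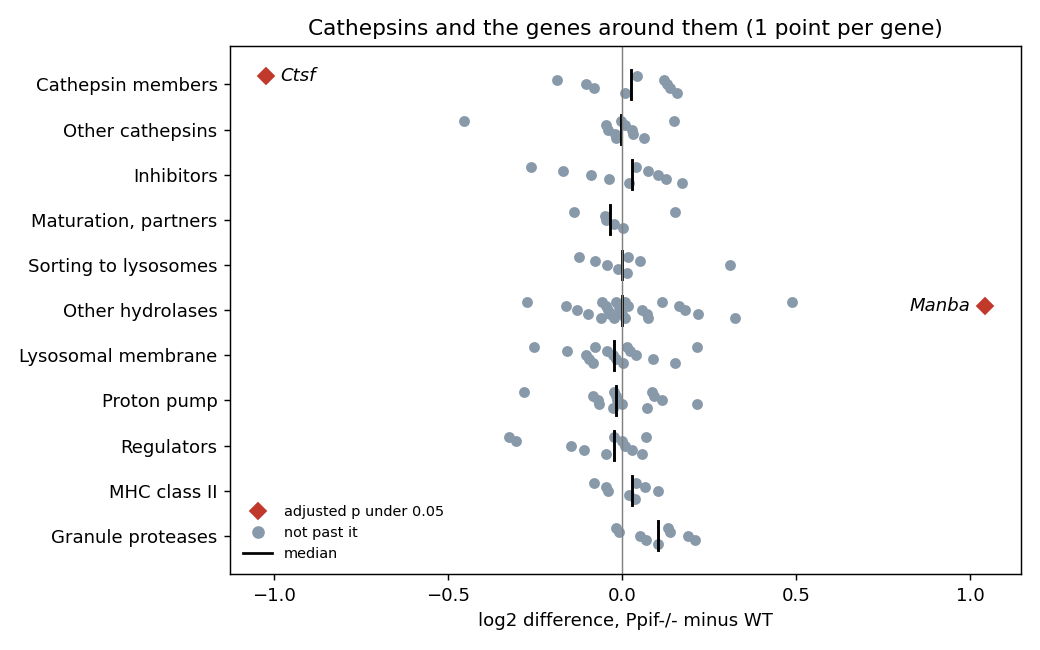
Log2 difference between Ppif-/- and WT hearts (x axis) for the cathepsin genes and for 10 lists of genes around them (y axis); each point is a gene, red diamonds passed an adjusted p of 0.05 and black lines are list medians. Ctsf at -1.02 and Manba at 1.04 are the genes that passed in these lists, and the list medians lie between -0.03 and 0.10.

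Inhibitors of cysteine cathepsins did not pass, 0 of 10 in limma with 1 at an unadjusted p under 0.05. This was the stefin Stfa3 (-0.26 ± 0.07, at the low level of 3.80 in WT hearts), and Ctla2b, which resembles a cathepsin propeptide, was next at 0.17 ± 0.13. Cst3, which encodes the secreted inhibitor cystatin C and was picked after its value was seen, was at 0.04 ± 0.07. The 6 genes of maturation and of the Ctsa complex also gave 0 calls in limma, and 0 at an unadjusted p under 0.05. The protease legumain (Lgmn), which processes cathepsin proenzymes, was at 0.15 ± 0.08 and the thioesterase Ppt1 at -0.14 ± 0.11.

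For the sorting of hydrolases to lysosomes, 0 of 8 genes passed in limma and 1 was higher at an unadjusted p under 0.05. It was the clathrin adaptor Gga2, which binds mannose 6-phosphate receptors (0.31 ± 0.07, limma adjusted p = 0.123), and its relative Gga1 was at -0.12 ± 0.06. Of 16 lysosomal membrane genes in the list 0 passed in limma and 1 was higher at an unadjusted p under 0.05, the tetraspanin Cd63 (0.22 ± 0.09). Cd68, also a lysosomal membrane protein, was listed with the macrophage markers and is given with them. Laptm5, found in lysosomes of blood cells, was at 0.15 ± 0.08.

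Of 14 subunits of the proton pump that acidifies the lysosome, 0 passed in limma, and 1 was higher and 1 lower at an unadjusted p under 0.05. Atp6v1b2 was at 0.21 ± 0.07 and Atp6v1g1 at -0.28 ± 0.07 (limma adjusted p = 0.216 and 0.131). Of 11 regulators of lysosomal genes, 0 passed in limma, and an unadjusted p under 0.05 was reached by 2, both lower. These were Fnip2, a partner of folliculin in nutrient sensing (-0.32 ± 0.10), and the Rag GTPase Rragd (-0.31 ± 0.10). Tfeb, picked after its value was seen, was at -0.15 ± 0.09 with overlapping groups.

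Of 8 measured genes of MHC class II presentation, which Ctss serves, 0 passed in limma (0 also at an unadjusted p under 0.05), with H2-Oa at 0.10 ± 0.07 and Ciita at -0.08 ± 0.06. The invariant chain Cd74, picked after its value was seen, was at -0.05 ± 0.10. Of 9 granule proteases that Ctsc activates, 0 passed in limma and 1 was higher at an unadjusted p under 0.05, Gzma (0.21 ± 0.08, at a low 4.05 in WT hearts), with Tpsab1 next at 0.19 ± 0.11.

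Markers of cell types that make cathepsins varied beside these values. Of 14 macrophage markers, 1 passed, Cd68, a lysosomal membrane protein of macrophages, at 8.12, 7.86 and 8.01 in Ppif-/- hearts and 7.46, 7.53 and 7.31 in WT hearts (0.56 ± 0.09, limma adjusted p = 0.0394). That call was lost without any 1 heart (limma adjusted p = 0.0551 to 0.145). Mertk was next at 0.38 ± 0.07 by p. Macrophage markers went both ways: the scavenger receptor gene Cd163 was at -0.53 ± 0.12 and Cd14, a receptor for bacterial lipopolysaccharide, at -0.66 ± 0.22, neither past the threshold and both named after their values were seen. Cd14 read 5.22, 5.44 and 5.55 in Ppif-/- hearts and 6.02, 6.58 and 5.60 in WT hearts, with WT heart 2 the highest. The groups did not overlap for 3 markers above and 3 below, 6 of 14, beside the 19.8% of all tested probe sets. The mean log2 level over the list was 7.87 to 7.94 in Ppif-/- and 7.85 to 7.93 in WT hearts.

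Among the cell type lists, the mean level of smooth muscle and pericyte markers lay lower in all Ppif-/- hearts, with a mean log2 level over 8 genes of 8.84 to 8.93 in Ppif-/- and 9.05 to 9.18 in WT hearts. In it 1 gene passed as lower, Tagln (-0.51 ± 0.08, limma adjusted p = 0.0332), with Myh11 next at -0.53 ± 0.11. The groups did not overlap for 5 of the 8, 4 with Ppif-/- hearts below and 1 above, the pericyte gene Rgs5 (0.27 ± 0.07, named after its value was seen), beside 19.8% of all tested probe sets. Of 11 fibroblast markers 1 passed as lower, the receptor gene Pdgfra (-0.44 ± 0.06, limma adjusted p = 0.0246), with Gsn at -0.33 ± 0.07. The collagen genes Col1a1 (0.21 ± 0.11), Col1a2 (0.27 ± 0.13) and Col3a1 (0.38 ± 0.21) and the matrix gene Postn (0.39 ± 0.19) had differences above 0, did not pass, and were named after their values were seen. For each of them WT heart 2 was the lowest of all hearts, at 9.25, 9.41, 8.98 and 7.37. The next lowest WT hearts were at 9.54, 9.81, 9.78 and 7.89. The list means of the genotypes overlapped (9.58 to 9.74 and 9.51 to 9.72). The calls of Tagln and Pdgfra were lost without any 1 heart (limma adjusted p = 0.0537 to 0.122 and 0.0693 to 0.0991). Cardiomyocyte markers gave 0 of 10 calls in limma and 2 at an unadjusted p under 0.05, Nppa (0.68 ± 0.13) and Ryr2 (-0.19 ± 0.06). The list means were 13.43 to 13.46 in Ppif-/- and 13.37 to 13.39 in WT hearts. These means differed by 0.07 over 10 genes, of which Nppa alone differed by 0.68. The median difference of the list was 0.03, with 6 genes above 0 and 4 below. The mean over 2 red cell genes was higher in all Ppif-/- hearts, at 6.82 to 6.91 against 6.51 to 6.81 in WT hearts. Of these genes Alas2 was at 0.38 ± 0.14 and Slc4a1 at 0.01 ± 0.07, and neither passed. The part of these cell types in the level of Ctsf was not tested.

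The genes whose pattern over the 6 hearts was most like that of Ctsf were Ttc38, Zfp330, Lgals8, Borcs6 and Cyb5d2, with Pearson correlations of 0.996 to 0.998. These values describe 6 points that fall into the 2 genotypes, so any gene that is lower in all 3 Ppif-/- hearts scores high. Ttc38 read 7.47, 7.47 and 7.38 in Ppif-/- hearts and 8.50, 8.81 and 8.60 in WT hearts. Its order of hearts within WT was the same as for Ctsf, with heart 2 highest and heart 1 lowest. Within Ppif-/- the order differed. Heart 2 was highest for Ttc38 (7.474, against 7.465 in heart 1) and heart 1 for Ctsf (7.897, against 7.880 in heart 2). The differences of the 5 genes ran from -1.20 ± 0.09 (Ttc38) to -0.36 ± 0.06 (Borcs6), which did not pass (limma adjusted p = 0.0505), and the other 4 passed.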

How the data were processed

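Hearts of 3 Ppif-/- and 3 WT mice, numbered in the labels, were compared. The authors deposited 1 log2 value per probe set and array, computed with RMA (background correction, normalisation between arrays, probe summary) per the submitters' processing notes, which give no version or filter. Differences of dim transcripts are understated by this method. Values ran from 1.91 to 14.63, were used as deposited, and no arrays were identical. No batch or detection call was given.

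Gene names came from the array's annotation and were brought up to date, by Entrez identifier, with a gene table of GRCm38.p6: 21789 carried 1 symbol (21698 matched the table), 1621 several and 12147 none. The 23410 with a symbol were tested with limma 3.58.1 in R 4.3.3 (lmFit, eBayes, two-sided, Benjamini-Hochberg over all of them). Differences are Ppif-/- minus WT, ± SE. A gene was represented by its single-symbol probe set with the highest mean. Levels of different probe sets are not compared. P-values test the difference between genotypes against the spread between these hearts, which eBayes moderates with that of all tested probe sets.

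The members and lists were chosen with earlier results of these data known. Named genes are all members, Ppif, in each list those past the threshold (at most 4) or, with fewer than 2 of these, the 2 of smallest p, and the 5 most like the member with the largest absolute difference; exceptions are marked. Of the lists used, markers of endothelium, lymphocytes, neutrophils and mast cells, red cells, nerve and glia, and skeletal muscle gave 0 calls in limma, with 2, 3, 4, 1, 0 and 0 genes at an unadjusted p under 0.05. Same-numbered hearts of the genotypes did not deviate together (correlations -0.08, -0.06 and 0.12), so the numbers were not taken as pairs.

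The procedure was tested on simulated data. Alternatives covered a block, filters, normalisation, the variance model and leaving out hearts.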

Additional observations from a re-analysis of the deposited data

How the results depend on the processing

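Ctsf passed as lower under all 16 alternatives run (limma adjusted p = 0.000142 to 0.00805, the latter with the replicate block), and the count of cathepsin genes called was 1 in each. Manba passed in all 16 as well. The count over all probe sets, 254, was 160 with the replicate number as a block, 405 on the brighter probe sets, 131 with all probe sets of the table, 453 with a variance trend, 386 with array weights, 115 with a minimum difference of 0.2, and 131 to 171 without 1 heart. The block changed no call of a cathepsin or listed pathway gene. It ended the calls of the markers Cd68, Pdgfra and Tagln (adjusted p = 0.098, 0.0929 and 0.0887), as did testing all probe sets (0.124, 0.0727 and 0.104) and the minimum difference (0.264, 0.331 and 0.278). With a variance trend, 2 pathway genes passed (Manba and Atp6v1g1, the latter at an adjusted p of 0.0393) and 2 neighbours of cathepsin genes (Tmem135 and Mcl1); on the brighter probe sets 1 neighbour did (Tmem135). Signs turned under some alternatives for Ctsb (4 of 16), Ctsc (2), Ctsh (2) and Ctsl (1), none of which passed. With 3 arrays per genotype and no detection calls, the intervals of the other 9 cathepsin genes, and not signal over background, show what could be resolved.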
